A study of Mus musculus with 2 samples.

Results

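Zfp600, Zfp980, Zfp990 and Rex2 are 4 zinc finger genes of mouse chromosome 4, and their reads were followed here through 5 populations of mouse pluripotent stem cells. They were taken from the raw count table by symbol, 4 of 33963 gene symbols, and all 4 had reads in every population. The genes were chosen because earlier values from the same cells were high after expansion of reverted cells, so every level and ratio below is a description and none is a test.

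Krüppel-associated box (KRAB) zinc finger proteins bind DNA through arrays of C2H2 zinc fingers, and most of them recruit the corepressor TRIM28, with the methyltransferase SETDB1 and the HP1 proteins, to silence transposable elements. Their genes lie in clusters that grew by local duplication, so that neighbouring genes can be close copies of each other. The cluster on distal mouse chromosome 4 holds many such genes, and its members have been studied in embryonic stem cells for the retroelements they silence. Rex2 belongs to this cluster and is not Rex1 (Zfp42), the naive-state marker whose promoter drives the reporter of the naive line used here.

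The study asked whether activation of AMP-activated protein kinase (AMPK) moves primed epiblast stem cells back to the naive state. Naive cells were Rex1-GFP mouse embryonic stem cells (mESCs), with a GFPd2 reporter under the Rex1 promoter, kept in 2iL (2 kinase inhibitors with LIF). Primed cells were Oct4GIP mouse epiblast stem cells (mEpiSCs), with an eGFPiresPuro transgene under the Oct4 promoter and enhancer, kept in FGF2 and Activin A. The labels place them on mouse embryonic fibroblast (MEF) feeders, and the study's methods place their expansion on fibronectin, with MEFs for the treatment. Oct4GIP cells were treated with the AMPK activator AICAR plus LIF, and were taken after 8 days as d8 and after 16 days as d16. The d16 + 10p cells came from d16 cells that were expanded for 10 passages in 2iL. All carried the strain label 129/Ola. The naive and the reverted cells are different lines, so the line and the state cannot be told apart in their comparison, and d16 and d16 + 10p cells differ in medium and in passages at once.

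Each population was 1 sample in 1 pooled cDNA library of 17720 cells and 307121033 reads, so no comparison has a replicate and no p-value can be given. The cells held between 3179 and 111822 reads. No cell number occurred under more than 1 tag. To compare pluripotent cells with each other, cells with at least 1000 Dppa5a counts per 1000000 reads (CPM) were called Dppa5a-high (570 of 801 naive, 1278 of 4315 d16 and 926 of 1151 d16 + 10p cells), and primed cells with at least 200 CPM of Pou5f1 were called Pou5f1-positive (497 of 1826). Dppa5a is an RNA-binding protein gene of naive cells, and Pou5f1 encodes OCT4. The groups were described with 6 pluripotency markers (Pou5f1, Sox2, Nanog, Dppa5a, Zfp42 and Esrrb). These summed to 4818, 5751 and 4824 CPM in Dppa5a-high naive, d16 and d16 + 10p cells and to 1183 CPM in Pou5f1-positive primed cells. The sums include the genes that set the groups: Dppa5a alone gave 2801, 3726 and 3051 CPM, and Pou5f1 gave 466 CPM in the primed cells. The other markers set no group. Each was lower in these primed cells (Sox2 271, Nanog 147, Zfp42 44.8 and Esrrb 12.2 CPM) than in every Dppa5a-high group. In the same order, 5 markers of primed epiblast (Fgf5, Fgf8, T, Pou3f1 and Otx2) summed to 53.1, 72.3, 59.6 and 290.4 CPM.

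All 4 genes lie on the plus strand of chromosome 4 in GRCm38, the assembly also called mm10. Zfp990 (ENSMUSG00000078503.9) spans chr4:145510759-145539188, Zfp980 spans chr4:145670685-145704441, Zfp600 spans chr4:146156824-146198755 and Rex2 spans chr4:147021850-147060794. The longest open reading frames of their annotated coding transcripts hold 13 C2H2 motifs in Zfp990, 13 in Zfp980, 17 in Zfp600 and 15 in Rex2. Other annotated genes overlap Zfp980 (Gm13239 and Gm26763), Zfp600 (Gm13165, Gm13170 and Gm26573) and Rex2 (C230088H06Rik, Gm13153 and Gm26573), and the strand used in counting is not given in the sources used here, so reads of such partners cannot be told apart.

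Zfp600 and Rex2 are the closest copies of each other, Zfp980 is a less close copy of both, and Zfp990 is not a close copy of any of them. Of the 50-base stretches in Rex2 transcripts, 79.8% also occurred in Zfp600 transcripts, and among those of the last 500 bases, nearest to the end where poly(A)-primed reads collect, all did. Zfp980 shared 56.6% of its stretches with Zfp600 and 58.6% with Rex2. A read from the end of Rex2 therefore cannot be assigned to Rex2 or Zfp600 by sequence alone, and the deposited split between these copies depends on the mapping. Zfp990 shared 0.425% of its stretches with Zfp980, 1.18% with Zfp600 and 1.34% with Rex2, and 0 of those in its last 500 bases, so its reads are a separate measurement. Against all genes, 26.6% of Zfp990 stretches, 71.3% of Zfp980 stretches, 79.0% of Zfp600 stretches and 89.3% of Rex2 stretches occurred in a transcript of another gene.

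The similarity reached into the promoters. RefSeq promoter windows (250 bases before to 50 bases after the gene start, GRCm38.p6) were found for Zfp980, Zfp600 and Rex2, and are printed because these 3 copies ordered the populations alike. The windows lie on the plus strand at chr4:145670447-145670746 (Zfp980), chr4:146156577-146156876 (Zfp600) and chr4:147021600-147021899 (Rex2). Capitals mark the longest run of bases, 65 in all, that the 3 windows share.

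Zfp980: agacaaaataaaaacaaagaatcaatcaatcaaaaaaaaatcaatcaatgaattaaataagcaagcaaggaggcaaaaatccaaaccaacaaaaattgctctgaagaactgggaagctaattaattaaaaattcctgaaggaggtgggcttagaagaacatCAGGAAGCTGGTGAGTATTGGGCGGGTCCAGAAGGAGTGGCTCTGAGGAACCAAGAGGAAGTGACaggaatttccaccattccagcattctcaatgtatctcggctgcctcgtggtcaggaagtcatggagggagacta
Zfp600: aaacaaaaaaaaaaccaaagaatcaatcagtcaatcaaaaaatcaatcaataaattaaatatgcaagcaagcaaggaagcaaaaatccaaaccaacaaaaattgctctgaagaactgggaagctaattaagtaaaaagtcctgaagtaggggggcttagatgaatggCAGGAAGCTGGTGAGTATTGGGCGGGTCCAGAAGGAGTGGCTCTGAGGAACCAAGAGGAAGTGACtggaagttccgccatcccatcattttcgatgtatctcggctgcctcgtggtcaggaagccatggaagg
Rex2: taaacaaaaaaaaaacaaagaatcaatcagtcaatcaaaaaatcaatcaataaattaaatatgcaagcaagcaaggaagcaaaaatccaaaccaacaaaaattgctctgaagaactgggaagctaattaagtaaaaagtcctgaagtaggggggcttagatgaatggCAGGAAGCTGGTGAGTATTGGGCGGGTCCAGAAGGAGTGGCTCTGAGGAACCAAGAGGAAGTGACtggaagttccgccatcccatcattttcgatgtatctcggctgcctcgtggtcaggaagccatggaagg

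Aligned over the window, Zfp600 and Rex2 were 99.3% identical, and Zfp980 was 88.6% identical to each of them. The shared run, searched as these exact letters on both strands, occurred in 3 of 32851 promoter windows (0.00913%), those of the 3 genes. At least 1 stretch of 20 bases from the run occurred in 11 windows (0.0335%), and all 11 belonged to zinc finger genes within 2 Mb of the 4 genes on chromosome 4: Gm13212, Rex2, Zfp534, Zfp600, Zfp979, Zfp980, Zfp982, Zfp984, Zfp985, Zfp987 and Zfp988. The windows hold 3 CG dinucleotides in Zfp980, 5 in Zfp600 and 5 in Rex2, against a median of 7 over all windows. A shared run is a description of the sequence and not a site at which binding was measured.

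In whole populations, taken as all cells of a tag, the 4 genes were low in primed and d8 cells, higher in d16 and naive cells, and highest in d16 + 10p cells. Of the primed-tagged cells, 72.8% were below the Pou5f1 threshold. In these, 6 fibroblast markers (Col1a1, Col1a2, Col3a1, Dcn, Thy1 and Postn) summed to 2438 CPM, against 499 CPM in Pou5f1-positive primed cells. The study considered the Oct4-negative cells of this population to be MEF feeders. Zfp990 had 24.0 CPM in primed cells, 18.6 CPM at d8, 95.4 CPM at d16 and 282 CPM after expansion, against 137 CPM in naive cells. Zfp600 had 25.8, 17.9, 115 and 384 CPM along the same series and 153 CPM in naive cells. Both genes had their lowest level at d8 and their highest after expansion, although they share almost no transcript sequence. Zfp980 had 11.8 CPM in primed cells, 7.57 CPM at d8, 51.2 CPM at d16 and 159 CPM after expansion, against 67.3 CPM in naive cells, and Rex2 had 8.86, 6.37, 38.5 and 124 CPM against 50.4 CPM. Their order of populations was that of Zfp990 and Zfp600. CPM is not divided by transcript length, so the levels do not rank the genes against each other. The 95% Poisson intervals of adjacent populations in this order did not overlap for any of the 4 genes, but they cover counting error only, and reads without molecular identifiers are not independent molecules.

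The d16 population held unlike cells, and the reads of the 4 genes came mostly from those with Dppa5a. Zfp990 had 220.1 CPM (95% Poisson interval 214 to 227) in Dppa5a-high d16 cells and 21.5 CPM (19.9 to 23.0) in Dppa5a-low d16 cells. Zfp600 had 268 CPM (261 to 275) and 24.1 CPM (22.5 to 25.7) in these cells. In both genes the level in the low cells was about that of whole primed cells. Zfp980 had 118 CPM in Dppa5a-high and 11.3 CPM in Dppa5a-low cells, and Rex2 had 89.9 and 8.05 CPM. On the log2 scale with a pseudocount of 1 CPM, Dppa5a-high d16 cells exceeded Dppa5a-low d16 cells by 3.30 in Zfp990, 3.28 in Zfp980, 3.42 in Zfp600 and 3.33 in Rex2. All 4 were at least 2-fold higher, as were 11.2% of the 11348 genes that reached 10 CPM on either side, whose median was -0.035. The Dppa5a-low cells carried more reads of fibroblast markers: 6 genes (Col1a1, Col1a2, Col3a1, Dcn, Thy1 and Postn) summed to 3521 CPM there and to 536 CPM in the Dppa5a-high cells, and none of the 6 was at 0. The 8 macrophage markers summed to 934 and 267 CPM in the same cells, against 720.4 CPM in Dppa5a-high naive cells and 25336 CPM in the macrophage-marker cells of d8 described further on. Fewer pluripotent cells and less RNA of a gene per cell cannot be told apart in a whole population.

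The split is a threshold on a continuous value. In d16 cells just below it, with a Dppa5a level of 500 to 1000 CPM (111 cells), Zfp990 had 107 CPM, Zfp980 71.3, Zfp600 149 and Rex2 46.5 CPM. Just above it, with 1000 to 2000 (184 cells), they had 161, 95.8, 214 and 70.9 CPM. The 111 cells below the threshold thus lay nearer to the cells above it than to the 2926 cells under 500, in which Zfp990 had 18.0, Zfp980 8.88, Zfp600 18.9 and Rex2 6.47 CPM. From 2000 upwards (1094 cells), the levels were 229.9 CPM in Zfp990, 122 in Zfp980, 276 in Zfp600 and 93.1 in Rex2.

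**Figure D1:**
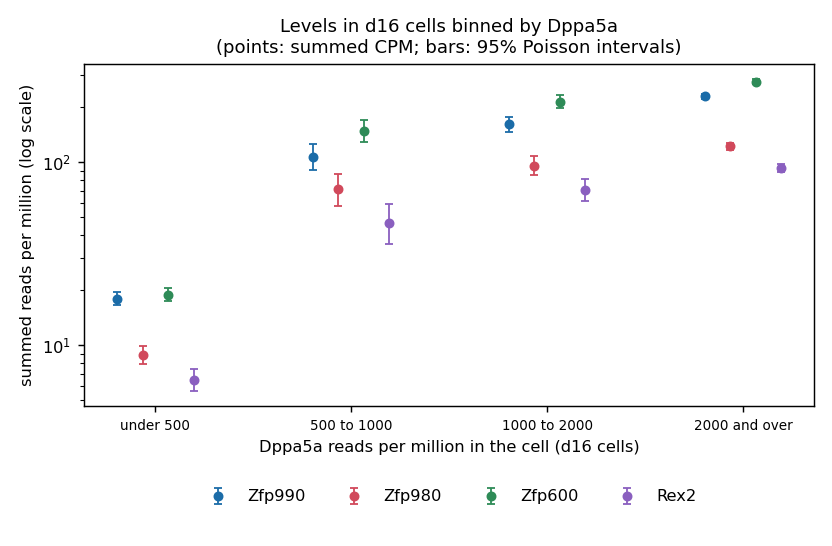
Summed CPM (log scale) of the 4 genes in d16 cells grouped by the Dppa5a level of the cell. Points are summed levels and bars are 95% Poisson intervals, and the step from under 500 to a Dppa5a level of 500 to 1000 CPM, from 18.0 to 107 CPM in Zfp990, is wider than any later step.

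Among Dppa5a-high cells, the order was d16 + 10p, then d16, then naive for each gene. Zfp990 had 307 CPM (299.7 to 314) in d16 + 10p, 220.1 CPM in d16 and 160.5 CPM (154 to 167) in naive cells. Zfp600 had 419, 268 and 178 CPM, Zfp980 had 172, 118 and 79.6 CPM, and Rex2 had 135, 89.9 and 58.7 CPM in that order. In Pou5f1-positive primed cells they had 29.5 CPM in Zfp990, 30.3 in Zfp600, 13.2 in Zfp980 and 10.1 in Rex2. The primed level of Zfp990 overlapped that of Dppa5a-low naive cells (28.6 CPM, 23.0 to 35.3) in its counting interval (26.3 to 33.0). Dppa5a-low d16 + 10p cells stood between these groups, with 84.2 CPM in Zfp990, 57.8 in Zfp980, 106 in Zfp600 and 41.9 in Rex2, although they are only 225 cells.

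**Figure D2:**
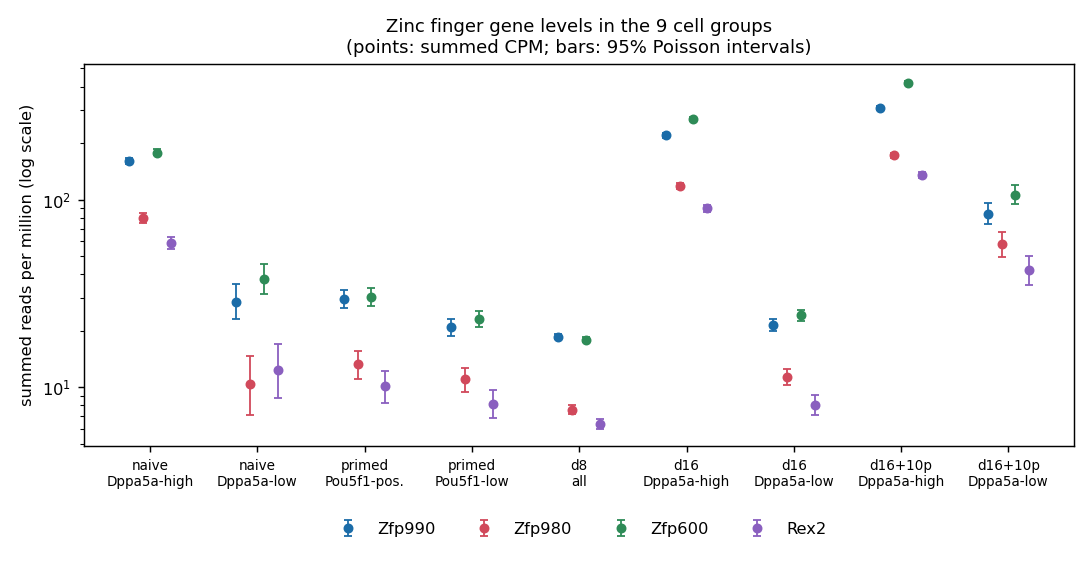
Summed CPM (log scale) of the 4 genes in the 9 cell groups, with points for the summed level and bars for the 95% Poisson interval. In each gene the Dppa5a-high d16 + 10p cells are the highest group, from 135 CPM in Rex2 to 419 CPM in Zfp600, and d8 cells are the lowest.

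Against naive cells, the expanded cells had 1.91 to 2.34 times the CPM of these genes. The log2 ratio of d16 + 10p over naive Dppa5a-high cells was 0.93 (95% counting interval 0.87 to 1.00) in Zfp990, 1.10 (1.01 to 1.21) in Zfp980, 1.23 (1.17 to 1.30) in Zfp600 and 1.19 (1.09 to 1.31) in Rex2. At least 2-fold were 3 of the 4, all but Zfp990 at 1.91-fold, beside 1.03% of 9979 genes, and the median was 1.14 beside 0.022 over all genes. Ranked from the highest ratio, Zfp600 stood at 61, Rex2 at 65, Zfp980 at 79 and Zfp990 at 114 of 9979. Reads moved among these 3 copies by the mapping do not alter their sum: Zfp980, Zfp600 and Rex2 together had 726 CPM in expanded and 317 CPM in naive cells, a log2 ratio of 1.19 (1.15 to 1.24). With 1 sample of each population, the spread between cultures of a line is unknown.

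Against d16 cells the difference was smaller. The log2 ratio of d16 + 10p over d16 was 0.48 (0.43 to 0.53) in Zfp990, 0.53 (0.46 to 0.61) in Zfp980, 0.65 (0.60 to 0.70) in Zfp600 and 0.58 (0.50 to 0.67) in Rex2. None of the 4 was at least 2-fold higher, beside 0.657% of 10201 genes, and the median was 0.56 beside -0.074 over all genes. This comparison shares the d16 + 10p cells with the one against naive cells. When all cells of each tag were used, the median was 1.64 and all 4 were at least 2-fold higher. The share over all genes was not counted with all cells, so that count has no background beside it. Of the d16 + 10p cells 80.5% were Dppa5a-high, and of the d16 cells 29.6%.

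Against Pou5f1-positive primed cells the ratios were much larger and share the primed cells as reference. The log2 ratio of d16 + 10p over primed was 3.33 in Zfp990, 3.60 in Zfp980, 3.75 in Zfp600 and 3.62 in Rex2, and all 4 were at least 2-fold higher, beside 6.06% of 10222 genes. Zfp600, at 13.4-fold, ranked 6 from the highest ratio. The ratio of d16 over primed was between 2.86 (Zfp990) and 3.10 (Zfp600), with 4 of 4 at least 2-fold higher beside 7.37% of 10418 genes, and that of naive over primed between 2.40 (Zfp990) and 2.52 (Zfp600), with 4 of 4 beside 6.32% of 10262 genes. Cells that are not pluripotent also had some reads of the genes. In the 773 d8 cells with reads of at least 5 of the 8 macrophage markers, Zfp990 had 15.3 CPM, Zfp980 7.24, Zfp600 15.8 and Rex2 5.82 CPM. The primed levels lay above these, with counting intervals that did not overlap (26.3 to 33.0 against 13.6 to 17.2 CPM in Zfp990). The primed reads lay in few cells, and the median Pou5f1-positive primed cell had 0 reads of each gene. The 50 of these cells with most reads of a gene carried 63.3% of them in Zfp990 and in Zfp600, 71.7% in Zfp980 and 75.2% in Rex2. That share was not computed for the macrophage-marker cells.

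Cell by cell, most expanded pluripotent cells had reads of these genes. Each cell was thinned to 5000 reads to set depth equal, since the median depth was 24034 reads in d16 + 10p, 14255 in d16, 23536 in naive Dppa5a-high and 19004 in Pou5f1-positive primed cells. Of 909 thinned d16 + 10p Dppa5a-high cells, 82.7% (95% Clopper-Pearson interval 80.1 to 85.1) had a Zfp600 read, against 65.4% (62.7 to 68.1) of 1238 d16 and 52.3% (48.1 to 56.5) of 560 naive cells. Zfp990 reads were found in 71.3%, 58.2% and 49.5% of these cells. The order of the populations was again d16 + 10p, d16 and naive. Zfp980 reads were found in 51.9%, 41.6% and 35.4%, and Rex2 reads in 47.2%, 36.1% and 22.0%. Without thinning, 97.0% of d16 + 10p, 87.2% of d16 and 86.1% of naive Dppa5a-high cells had a Zfp600 read, a gap between d16 and naive cells that lies within their intervals (85.2 to 89.0 and 83.0 to 88.9). Thinning left out 17 d16 + 10p, 40 d16 and 10 naive cells of these groups.

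Cells of another type gave the background share. In macrophage-marker cells of d8 (738 after thinning, median depth before thinning 20669 reads), 8.94% had a Zfp600 read (6.98 to 11.2), 7.59% a Zfp990 read, 4.34% a Zfp980 read and 2.71% a Rex2 read. Pou5f1-positive primed cells were at 12.1% for Zfp600 (9.27 to 15.4), 11.4% for Zfp990, 4.32% for Zfp980 and 3.89% for Rex2, and the intervals overlapped those of the macrophage-marker cells in each gene. Dppa5a-low d16 cells were at 9.70%, 8.65%, 4.45% and 3.84% in the same order. No expression is read from the shares in primed and Dppa5a-low d16 cells, which at 5000 reads a cell were near this background, although their summed CPM at full depth was above that of the macrophage-marker cells. Dppa5a-low d16 + 10p cells were above it, with 27.7% for Zfp600 (21.2 to 35.1) of 173 cells.

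Cells with reads of several of the genes were counted as well. The mapping can split reads of 1 copy among Zfp980, Zfp600 and Rex2, so reads of all 4 need not come from 4 expressed genes. Reads of all 4 were found in 172 of 909 thinned d16 + 10p Dppa5a-high cells (18.9%), in 116 of 1238 d16 cells (9.37%) and in 13 of 560 naive cells (2.32%). No read of any was found in 3.52%, 8.97% and 13.2% of them. In macrophage-marker cells, 78.7% had none and 0 of 738 had all 4. Within a group, however, the reads of 2 genes hardly ranked the cells alike: Spearman's rho over the d16 + 10p Dppa5a-high cells lay between 0.090 (Zfp990 with Zfp980) and 0.20 (Zfp600 with Rex2), which in sparse counts is no finding. In the d16 + 10p Dppa5a-high cells, the reads were not held by a few cells either. The 93 d16 + 10p Dppa5a-high cells with most Zfp600 reads, 1 in 10 of the group, carried 25.1% of them, and the median cell had 9 Zfp600 reads, 6 Zfp990 reads, 3 Zfp980 reads and 3 Rex2 reads.

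**Figure D3:**
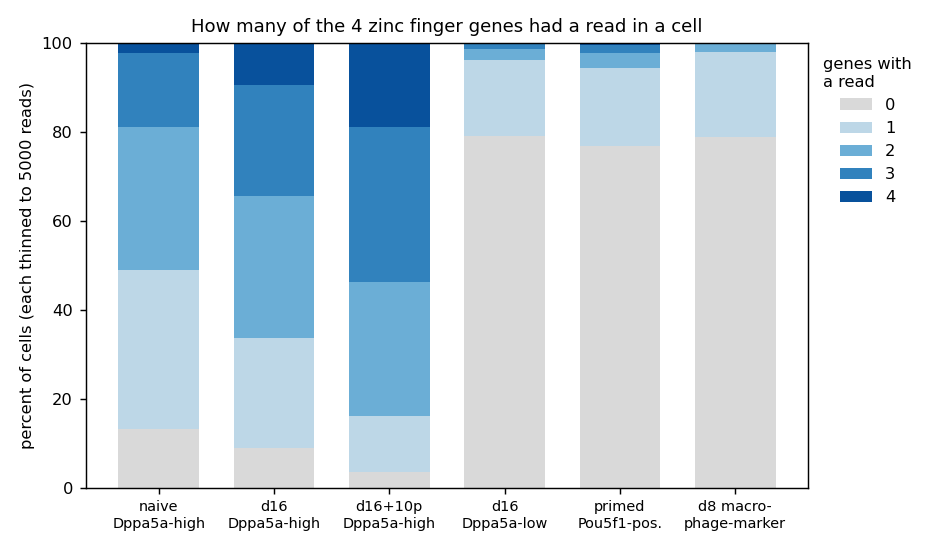
Percent of cells, each thinned to 5000 reads, in which 0 to 4 of the genes had a read, in 6 groups. Cells with all 4 make up 18.9% of Dppa5a-high d16 + 10p and 2.32% of Dppa5a-high naive cells, and cells with none make up 78.7% of macrophage-marker cells. Reads of Zfp980, Zfp600 and Rex2 cannot be fully told apart.

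Zscan4 genes mark a rare state of embryonic stem cells that resembles the embryo's 2-cell stage. In the 98 d16 cells with at least 100 CPM of summed Zscan4 reads, Zfp990 had 185 CPM (161 to 212), Zfp980 119 (100.4 to 141), Zfp600 199 (174 to 227) and Rex2 62.3 (48.8 to 78.5). The other 1220 Dppa5a-high d16 cells had 219.6, 117, 268 and 90.3 CPM. The values depended on which Zscan4-positive cells were taken, and in Zfp990 the direction did too. In the 58 that were Dppa5a-high, a subset added after the values were seen, Zfp990 had 233 CPM (200.4 to 270.1), Zfp980 154 (127 to 184), Zfp600 262 (227 to 301) and Rex2 80.8 (61.9 to 104), so that Zfp990, Zfp600 and Rex2 overlapped the other cells and Zfp980 was above them. In the 40 that were Dppa5a-low, the levels were 90.3, 51.6, 74.8 and 25.8 CPM.

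Most neighbouring zinc finger genes had levels that ordered the populations alike. Of the genes in the count table, 17 others within 2 Mb of a member are named Zfp or have at least 3 C2H2 motifs, and 47 are other coding genes. Coding genes there that the count table lacks were left out. In d16 + 10p over naive Dppa5a-high cells, 15 of the 17 reached 10 CPM in either group. The counting interval lay above 0 in all 15 (and in 9 of 21 other coding genes, with 2 below 0). Such intervals were not counted over all genes. At least 2-fold higher were 6, beside 1.03% of 9979 genes: Zfp988 (1.25 on the log2 scale), Zfp985 (1.24), Zfp979 (1.16), Zfp987 (1.14), Zfp982 (1.14) and Zfp984 (1.13). The median of the 15 was 0.97, with a range of 0.55 to 1.25. Of 21 other coding genes that reached 10 CPM, 1 was at least 2-fold higher (Gm21411, 1.39, a predicted gene inside the cluster) and 1 at least 2-fold lower (Tnfrsf1b, a tumour necrosis factor receptor, at -1.02), with a median of 0.13. The other genes of chromosome 4 had a median of 0.044 (609 genes), and the medians of the 20 chromosomes lay between -0.26 and 0.089.

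Zfp988 had 79.9 CPM in d16 + 10p, 72.9 in d16 and 33.1 in naive Dppa5a-high cells, so that its d16 and expanded levels were close. Zfp985 had 203, 154 and 85.8 CPM, and Zfp979 had 189, 128 and 83.8 CPM. These levels step from naive through d16 to d16 + 10p, as in Zfp600. Zfp984 had 95.1, 70.2 and 42.9 CPM, Zfp987 84.4, 65.3 and 37.8 CPM, and Zfp982 55.5, 39.7 and 24.6 CPM. In the comparison with d16, 0 of the 15 were at least 2-fold higher, beside 0.657% of 10201 genes, and their median was 0.37. A counting interval above 0 was found in 11, as in 7 of 20 other coding genes, of which 5 had one below 0. Here too, such intervals were not counted over all genes. Against primed cells all 15 were at least 2-fold higher, with a median of 2.54, beside 6.06% of 10222 genes. Of 21 other coding genes 4 were (Gm21411, Pramef12, Fbxo6 and Agtrap). Zfp933, a zinc finger gene at the distal border of the cluster, had 5.63 CPM in expanded and 3.67 CPM in naive cells, below the 10 CPM minimum, as did Casz1, a zinc finger gene of another family, with 4.17 and 4.37 CPM.

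**Figure D4:**
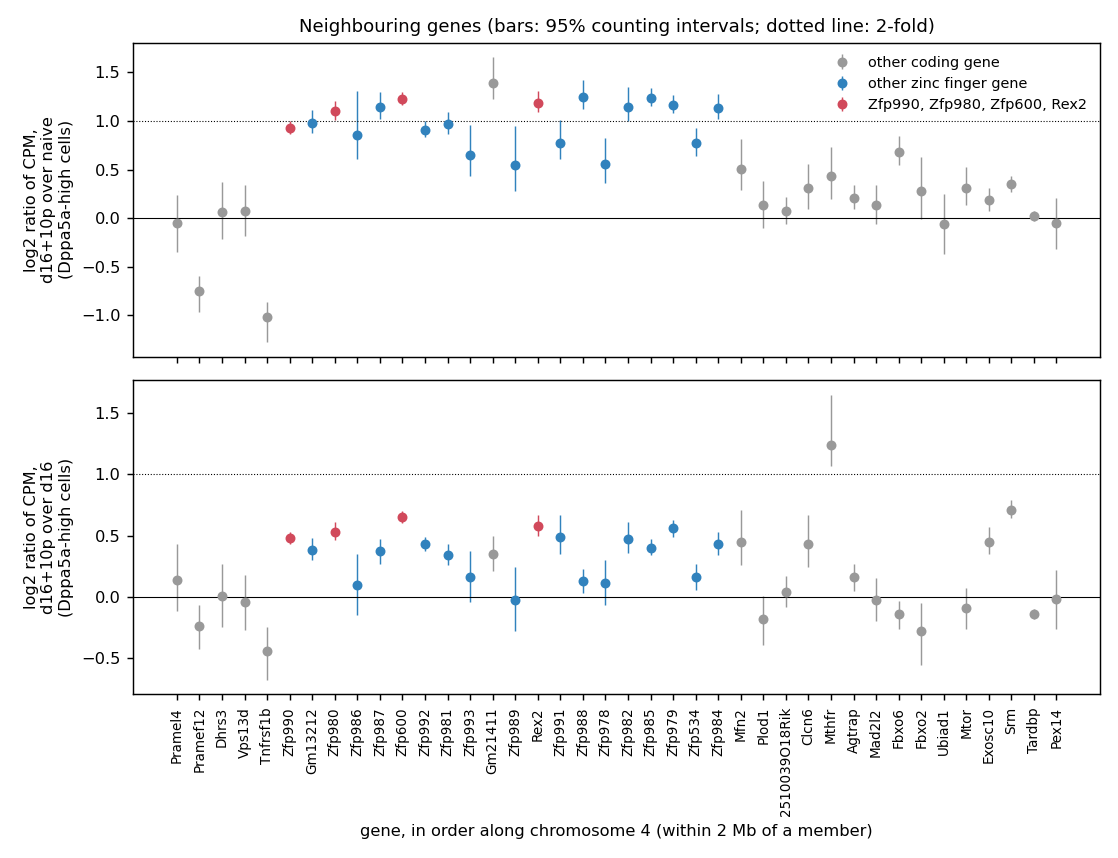
Log2 ratio of CPM in Dppa5a-high d16 + 10p cells over naive cells (upper panel) and over d16 cells (lower panel) for genes with at least 10 CPM, in their order along chromosome 4. Bars are 95% counting intervals and the dotted line marks 2-fold. In the upper panel, zinc finger genes run from 0.55 to 1.25, and other coding genes from -1.02 to 1.39 with a median of 0.13.

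Zinc finger genes with little shared sequence in their last 500 transcript bases had ratios that overlapped those of genes with much. Of the 17 neighbours, 10 shared less than 50% of the 50-base stretches of their last 500 bases with another gene, and 8 of these reached 10 CPM. In d16 + 10p over naive cells, 5 of the 8 were at least 2-fold higher, beside 1.03% of 9979 genes, and the median of the 8 was 1.14. Zfp992 shared 43.0% over its whole transcripts and 0% in its last 500 bases. Its level was 219.8 CPM in expanded and 116 CPM in naive cells, a log2 ratio of 0.91 (0.84 to 1.00). Zfp982, whose last 500 bases shared 3.82%, was at 1.14 (1.00 to 1.35). The lowest ratios were those of Zfp989 (0.55, 70.3% shared) and Zfp978 (0.56, 85.1% shared), which had few reads (11.2 and 23.2 CPM in d16 + 10p cells). Among the 8 other genes with a 20-base stretch of the shared promoter run, 6 were at least 2-fold higher, beside 1.03% of 9979 genes, with a median of 1.14. Of the other neighbours that reached 10 CPM, Zfp981 (0.97) and Zfp993 (0.65) had a window without such a stretch, and no window was searched for Zfp986, Zfp992, Zfp989, Zfp991 and Zfp978. Whether the run and the ratio go together was not tested.

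**Figure D5:**
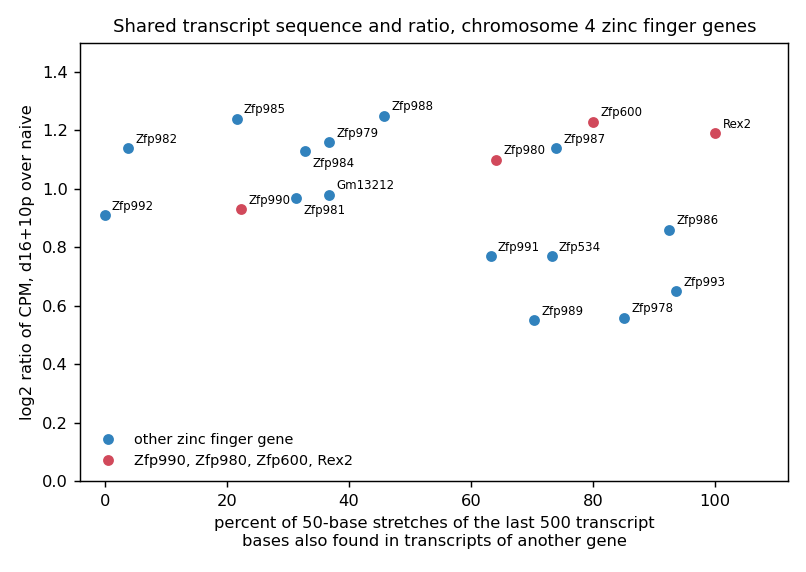
Log2 ratio of d16 + 10p over naive Dppa5a-high cells against the percent of 50-base stretches of the last 500 transcript bases that occur in another gene, for the chromosome 4 zinc finger genes with at least 10 CPM. Rex2 (1.19) shares all of these stretches. Zfp982 (3.82%, 1.14) lies near it, and Zfp992 (0%, 0.91) lies below it.

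Beyond the cluster, 2-fold differences between expanded and naive cells were about as rare among zinc finger genes as among all genes. Of 172 genes named Zfp with a number that lie outside the neighbourhood and reached 10 CPM, 1 was at least 2-fold higher in d16 + 10p than in naive cells (0.581%) and 1 at least 2-fold lower, with a median of 0.11. Over all 9979 genes, 1.03% were at least 2-fold higher and 1.00% at least 2-fold lower. The gene that was higher was Zfp462, at 1.00 (44.5 and 21.7 CPM). Of 13 zinc finger genes known in stem cells, 11 reached 10 CPM and Zfp462 was again the 1 at least 2-fold higher. Zfp42 (Rex1) was at -0.60, with 441 CPM in expanded and 667 CPM in naive cells. Zfp57, which protects imprinted methylation, was at 0.19 (87.5 and 76.8 CPM), and Zfp809, which silences retroviruses, at -0.12 (14.3 and 15.6 CPM).

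The partners through which KRAB zinc finger proteins act differed by less than 2-fold among Dppa5a-high cells. None of 13 partner genes was at least 2-fold higher or lower in d16 + 10p than in naive or d16 Dppa5a-high cells, with medians of 0.11 and 0.043. Few genes of any kind were: 1.03% of all genes were higher and 1.00% lower against naive cells, and 0.657% and 1.69% against d16 cells. None among 13 is near these shares and does not set the partners apart. Trim28, the corepressor, had 601 CPM in d16 + 10p, 481 in d16, 498 in naive and 442 in Pou5f1-positive primed cells. Setdb1, the H3K9 methyltransferase, had 146, 149, 118 and 238 CPM. Against primed cells, Setdb1 was at least 2-fold lower in naive cells (118 against 238 CPM) and Morc3, a silencing factor, at least 2-fold higher in d16 cells (1.12), and none of the 13 was past 2-fold in d16 + 10p cells. Over all genes, 4.65% were at least 2-fold lower in naive cells and 7.37% higher in d16 cells. In d16 + 10p cells 6.06% were higher and 3.67% lower. Hdac1, a histone deacetylase, was at 0.74 against naive cells, the highest of the list. Between Dppa5a-high and Dppa5a-low d16 cells, 5 of 13 were at least 2-fold higher: Uhrf1 (2.13), Morc3 (1.54), Trim28 (1.48), Dnmt1 (1.14) and Hdac1 (1.11), beside 11.2% of all genes.

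The genes most like the 4 across the 9 cell groups were ranked by Pearson's r of log2(CPM + 1). Of the 20 places in the 4 lists of 5, drawn from 9396 genes, zinc finger neighbours held 10. These went to Zfp981, Zfp987 and Zfp985, each in more than 1 list, and to Zfp534. Of the 17 neighbours, Zfp986, Zfp993, Zfp989, Zfp933 and Casz1 were below 20 CPM in every group and could not enter. The 4 genes correlated with each other at 0.9891 to 0.9987, so their lists are not separate evidence. At the head stood Zfp981 (r = 0.9982) and Zfp534 (0.9980) for Zfp990, Zfp987 for Rex2 (0.9981) and Zfp600 (0.9959), and Zfp985 for Zfp980 (0.9910). Among the 5 most like genes of all 4 lists stood Zfp981, and in all 4 stood also Gm8935, a gene annotated on chromosome 3 that shares 50-base stretches with Zfp990 and its neighbours. In the last 500 bases, Zfp981 shares stretches with Rex2, Zfp600 and Zfp980, and Zfp990 shares some with Zfp534. These pairs are thus not fully separate measurements. Outside the family, Rbmxl2, a germ-cell RNA-binding protein gene on chromosome 7, was in the lists of Zfp990 (0.9955) and Zfp600 (0.9949), and Lncenc1, a long noncoding RNA of naive embryonic stem cells, in that of Rex2 (0.9948). The remaining places went to Gm21897 on chromosome 16 for Zfp990 (0.9945), Gm17067 on chromosome 7 for Zfp980 (0.9892) and Gm47036 on chromosome 12 for Zfp600 (0.9951). Rbmxl2 had 28.8 CPM in naive, 32.8 in d16 and 42.5 in d16 + 10p Dppa5a-high cells, and 3.45 CPM in Pou5f1-positive primed cells. The 9 groups come from 1 library and include groups split by Dppa5a or Pou5f1, so the correlations describe this pool.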

How the data were processed

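The 4 genes, the gene lists and the thresholds were chosen with earlier results of these data known. The values used were raw counts, deposited by the authors as whole reads per gene symbol and cell. The submitters' processing notes name cutadapt 2.10, Bowtie2 2.3.4.1 and Seurat 2.3.4 and the build mm10. Per the study's methods, reads were mapped to cDNA sequences and cells were assigned to the 5 tags, with likely doublets removed before deposit. The sources describe no molecular identifiers, so counts were treated as reads, and all intervals cover counting error only. The tag library was not used.

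From the counts, reads were summed over the cells of a group and divided by their total (counts per 1000000 reads, CPM). Ratios were taken on the log2(CPM + 1) scale over genes that reached 10 CPM on either side. Their intervals come from the exact binomial interval of the reads of 2 groups, without the pseudocount. Shares of cells carry Clopper-Pearson intervals after thinning to 5000 reads. With 1 sample per population there is no test. Macrophage-marker cells were d8 cells with reads of at least 5 of 8 markers, a limit chosen after the values were seen. Positions, transcripts and C2H2 motifs are from GENCODE M21, and promoters from RefSeq GRCm38.p6. The other genes named were those at least 2-fold higher or lower in d16 + 10p than in naive cells among neighbours and listed genes, the 5 genes most like each member (at least 20 CPM in 1 group and 100 reads in all), and examples from the fixed lists, some of which were chosen after their values were seen. The alternatives used other thresholds on Dppa5a, Pou5f1, genes per cell and CPM, a pseudocount of 10, TMM factors (edgeR 4.0.16), means over cells, thinned cells and removal of the 1% of cells with most reads. Ratios, intervals and thinning were tested on simulated data. Tools were Python, numpy and scipy.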

Additional observations from a re-analysis of the deposited data

How the results depend on the processing

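In the 6 comparisons of populations, all 236 ratios of single genes under an alternative setting stayed above 0. With all cells of each tag, 4 genes in place of 0 were at least 2-fold higher in d16 + 10p than in d16 cells. The share over all genes was not counted there. The median log2 ratio over the 4 genes was then 1.26 for d16 + 10p against naive, 1.64 for d16 + 10p against d16 and 2.01 for d16 against primed cells. With a pseudocount of 10 CPM, it was 1.05 for d16 + 10p against naive, 2.98 for d16 + 10p against primed, 2.50 for d16 against primed, 2.73 for Dppa5a-high against Dppa5a-low d16 and 2.03 for naive against primed cells. With the mean of CPM per cell it was 3.30, 2.76 and 2.20 for d16 + 10p, d16 and naive against primed cells. TMM factors gave 0.68 for d16 + 10p against d16. For the d16 split, a Dppa5a threshold of 2000 CPM gave 2.77, and leaving out the 1% of cells with most reads of the gene gave 3.69.

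The median share of cells with a read moved with depth: 91.7% without thinning and 83.2% at 10000 reads in d16 + 10p, 77.0% and 70.1% in d16, 78.1% and 59.5% in naive Dppa5a-high cells, 24.0% and 14.6% in Pou5f1-positive primed cells, and 18.4% and 9.48% in macrophage-marker cells. Cells with more than 2000 and fewer than 8000 genes gave 314 CPM for the 4 genes summed in d16 cells, in place of 299.7. The count of genes at least 2-fold higher in d16 + 10p than in naive cells was 30 with a minimum of 50 CPM and 206 with any read, in place of 103, and d16 + 10p against d16 gave 23 and 107, in place of 67. The other comparisons gave 211 and 1162 (619), 238 and 1619 (768), 584 and 1935 (1276), and 187 and 1247 (649), for d16 + 10p against primed, d16 against primed, the d16 split and naive against primed cells, with the main count in parentheses. In Zscan4-positive d16 cells against the other Dppa5a-high d16 cells, the log2 ratio was -0.24 in Zfp990 and -0.29 for the 4 genes summed, and turned to 0.087 and 0.071 with the Dppa5a-high Zscan4-positive cells alone, a subset taken after seeing the data. No paired analysis was possible because each population is 1 sample. Without replicate cultures, only counting error could be measured.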
